A study of Mus musculus with 13 samples.

Results

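Hox genes encode homeodomain transcription factors that give cells their position along the head-to-tail axis of the embryo. They were taken as every gene whose symbol reads Hoxa, Hoxb, Hoxc or Hoxd followed by digits only. This gave 39 of the 49671 genes in a table of single ES cell libraries and 27 of the 26797 genes listed for replicate libraries. The other 12 genes, Hoxa3, Hoxa4, Hoxa5, Hoxa6, Hoxb2, Hoxb5, Hoxb6, Hoxc6, Hoxc8, Hoxc9, Hoxd4 and Hoxd8, were not analysed here in replicates and are described from the single libraries.

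Polyadenylated RNA was sequenced from mouse embryonic stem (ES) cells kept on gelatin with serum and leukemia inhibitory factor, to ask which transcripts depend on DNA methylation and on the sugar O-GlcNAc at promoters of IAP retrotransposons. The WT group held 3 libraries of untreated AinV15 cells, a wild-type ES line built for exchange of a doxycycline-inducible cassette, with the Tet-On activator at the ROSA26 locus. The Dnmt1−/− group held 3 libraries of untreated cells of a strain named D1-null (C allele), which lack the methyltransferase that copies CpG methylation after replication. AinV15 cells that expressed dCas9-OGA, a nuclease-dead Cas9 fused to a bacterial enzyme that removes O-GlcNAc, gave 1 library, and AinV15 cells with the catalytic mutant dCas9-OGA D242A gave 1 library. Both carried 4 sgRNAs against the U3 region of IAP elements and had received 1 µg/mL doxycycline for 48 h. The table of single libraries also holds 1 library each of WT and Dnmt1−/− cells, tied to none of the replicates and without a stated line. WT and Dnmt1−/− replicates came from different lines, so genotype and line cannot be told apart. Nothing says that the replicates were separate cultures, and p-values therefore measure the spread between these libraries only.

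Reads on genes numbered 29286057, 37112247 and 26846275 in the WT replicates and 29772439, 30950554 and 27934568 in the Dnmt1−/− replicates. The single libraries held 25097983 reads for WT, 18693531 for Dnmt1−/−, 24955180 for dCas9-OGA and 24828078 for dCas9-OGA D242A. Replicate values are a signal, the reads on a gene divided by a library size that the authors had scaled, in which 1 read was worth between 0.0260 and 0.0368. Fold changes are Dnmt1−/− over WT on the log2(signal + 0.5) scale, which understates the change of low genes, and are given ± SE. The replicate and single tables were normalized separately, so their levels are only set side by side.

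In mammals the Hox genes lie in clusters, and their paralogue numbers run from the 3′ end of a cluster, whose genes are switched on early and towards the head, to the 5′ end, whose genes are switched on late and towards the tail. In ES cells the clusters carry Polycomb marks and are nearly silent, while Trithorax proteins of the MLL type, retinoic acid and Cdx factors are known to activate them during differentiation. Hox proteins bind DNA together with homeodomain partners of the Pbx and Meis families.

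Dnmt1 (ENSMUSG00000004099), the deleted gene, had a signal of 308, 352 and 347 in the WT replicates and of 73.6, 75.4 and 77.6 in the Dnmt1−/− replicates, whose mean was 22.5% of the WT mean. In the single libraries Dnmt1 had 11408 counts in WT and 1176 in Dnmt1−/−, against 13614 with dCas9-OGA and 9339 with dCas9-OGA D242A. The libraries labelled Dnmt1−/− were thus the lowest of each table. All 9 ES cell markers listed were tested, and the signal summed over them in Dnmt1−/− cells was 99.0% of that in WT cells. Pou5f1, the POU factor of pluripotent cells, had a signal of 306 ± 10.5 in WT and 272 ± 9.91 in Dnmt1−/− cells (SD, n = 3 each).

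Hox RNA was low in every library and lower in Dnmt1−/− than in WT cells. Summed over the 27 genes, the signal was 80.1, 85.7 and 80.3 in the WT replicates and 32.9, 32.4 and 32.2 in the Dnmt1−/− replicates. Every Dnmt1−/− sum was far below every WT sum, and the mean was 39.7% of that in WT cells. In bulk RNA, fewer cells that express a gene and less of its RNA per cell cannot be told apart. For 22 of the 27 genes every WT library was above every Dnmt1−/− library, as it was for 27.5% of all 26797 genes. For 1 gene, Hoxd1, every Dnmt1−/− library was the higher, as for 26% of all genes. The replicates of Hoxa13, Hoxb13, Hoxd3 and Hoxd12 overlapped.

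Tested without a filter on low genes, 22 of the 27 Hox genes were lower and 1 was higher at a Benjamini-Hochberg adjusted p under 0.05 (limma), beside 25.8% lower and 23.7% higher, or 49.5% in either direction, among all 26797 genes. The median fold change was −0.77 over the Hox genes and −0.02 over all genes. With the filter, 23 Hox genes were among 17297 tested, of which 71.2% passed, 35.4% lower and 35.8% higher in Dnmt1−/− cells. Of these 23, 17 had enough reads in each group taken alone, and 16 of the 17 were lower, the exception being Hoxa13. Among the 7789 tested genes with mean reads in the range of the tested Hox genes, 42.3% were lower. Hoxa2, Hoxb1, Hoxc10, Hoxc11 and Hoxd11 passed the filter only through their WT reads and Hoxd1 only through its Dnmt1−/− reads, so their direction is partly set by the filter. Hoxb3, Hoxd3, Hoxd10 and Hoxd12 had too few reads.

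Markers of fibroblasts, the cells on which ES cells are often fed, moved the same way between the replicate groups. Of 12 such markers, 11 were lower and 1, Pdgfra, was higher in Dnmt1−/− cells, beside 35.4% and 35.8% of all genes tested. No marker was at 0 reads in all libraries, but the lowest passed the filter through WT reads only. The signal summed over the 12 markers was 1385, 1626 and 1143 in WT and 301, 316 and 285 in Dnmt1−/− cells. Col1a1 was the most abundant. The part of these cells in the Hox result was not tested in the replicates.

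**Figure D1:**
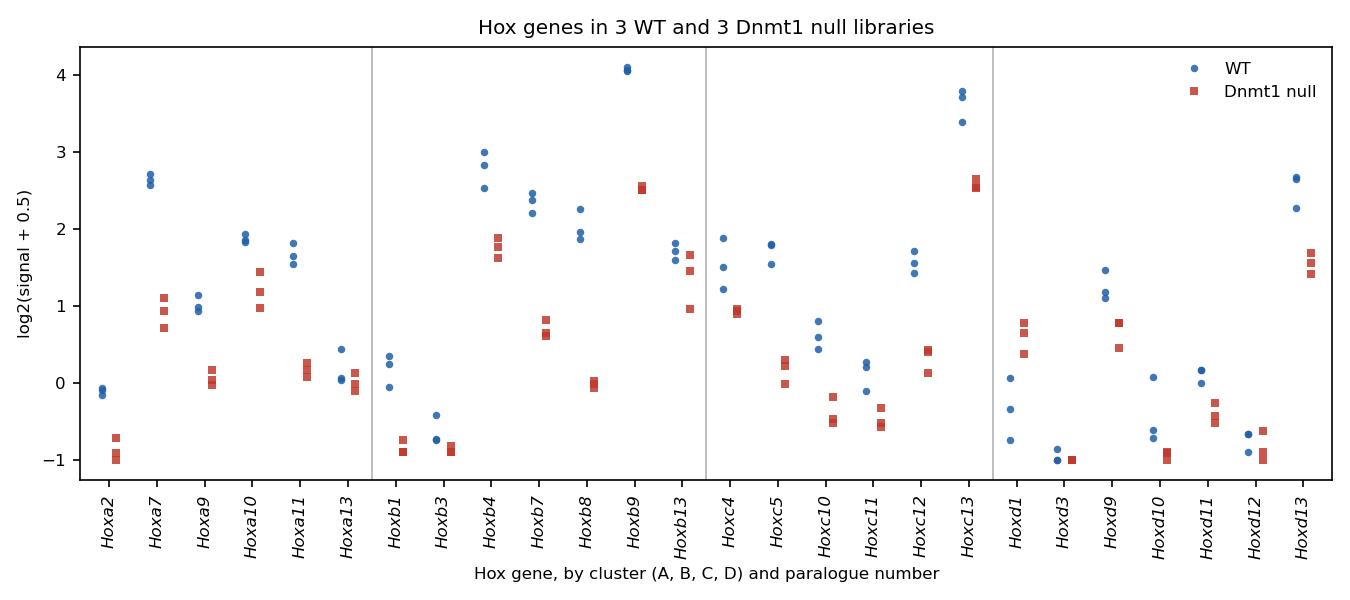
Signal of 26 of the 27 Hox genes in each replicate library on the log2(signal + 0.5) scale (vertical axis), with the genes of each cluster side by side (horizontal axis); blue circles are the 3 WT and red squares the 3 Dnmt1−/− libraries. WT lies above Dnmt1−/− without overlap for all but 5 of them, and Hoxd1 shows the opposite order.

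Of the genes with paralogue numbers 5 to 8, which pattern the trunk, those listed in the replicates kept the smallest share of their RNA. Summed over Hoxa7, Hoxb7, Hoxb8 and Hoxc5, 4 of the 11 such genes, the signal was 17.1, 18.0 and 15.1 in WT and 4.07, 3.42 and 3.39 in Dnmt1−/− cells, which left 21.7% of the WT mean. The share left was 53.4% for paralogues 1 to 4 and 41.8% for paralogues 9 to 13, and the differences between these groups were not tested. In the single libraries the order differed: from WT to Dnmt1−/− all 11 fell from 3.59 to 1.89 cpm, paralogues 1 to 4 from 8.79 to 2.68 and paralogues 9 to 13 from 19.4 to 7.15.

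Hoxb8 (ENSMUSG00000056648), which acts in the spinal cord and in myeloid progenitors, had the largest fold change of the tested Hox genes on the scale of log2(signal + 0.5), though Hoxb1 (8.81%) and Hoxa2 (11.1%) kept a smaller share of their low WT means. The shares of Hoxb1 and Hoxa2 rest on 1, 3 and 1 and on 0, 1 and 3 Dnmt1−/− reads, and so depend on single libraries. Whether Hoxa2 kept less than Hoxb8 was not tested. The signal of Hoxb8 was 3.37, 4.28 and 3.16 in WT and 0.453, 0.493 and 0.516 in Dnmt1−/− cells. The 3 Dnmt1−/− libraries lay close together at 13.5% of the WT mean, and the fold change was −2.05 ± 0.14 (limma, Benjamini-Hochberg adjusted p = 2.53e-12). Hoxa7 (ENSMUSG00000038236), a regulator of thoracic identity, had a signal of 5.70, 6.05 and 5.42 in WT against 1.64, 1.41 and 1.14 in Dnmt1−/− cells. The lowest WT library was over 3 times the highest Dnmt1−/− library, with a fold change of −1.72 ± 0.13 (limma, Benjamini-Hochberg adjusted p = 1.06e-11). Hoxb7 (ENSMUSG00000038721), the gene of the same paralogue number on chromosome 11, stood at 5.04, 4.70 and 4.13 in WT and at 1.25, 1.02 and 1.07 in Dnmt1−/− cells. All 3 Dnmt1−/− values were far below any WT value, with a mean at 24.1% of the WT mean.

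Hoxc5 (ENSMUSG00000022485), which is expressed from the neck to the thorax, had a signal of 2.95, 2.99 and 2.41 in WT and 0.731, 0.493 and 0.663 in Dnmt1−/− cells. The groups again stood apart, with a fold change of −1.54 ± 0.14 against −1.67 ± 0.13 for Hoxb7. Of the exon length of Hoxa7, 20.4% is shared with the antisense transcript Hoxaas3. Hoxc5 shares 5.37% of its exon length with Hoxc10 on the same strand. Reads in the part shared with Hoxc10 cannot be told apart by strand. For antisense pairs, the paper names a stranded kit and the labels another, and the strand used in counting is not stated, so these reads cannot be told apart either.

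The posterior genes, with paralogue numbers 9 to 13, held most of the Hox signal, 51.3 ± 2.11 in WT and 21.4 ± 0.160 in Dnmt1−/− cells (SD, n = 3 each). Hoxb9 (ENSMUSG00000020875), which patterns the ribs, was the gene with the most Hox reads in WT. Its signal was 16.0, 16.7 and 16.2 in WT and 5.19, 5.39 and 5.20 in Dnmt1−/− cells. Both groups were tight, the Dnmt1−/− mean was 32.3% of the WT mean, and the fold change was −1.54 ± 0.09 (limma, Benjamini-Hochberg adjusted p = 5.59e-14). Hoxc13 (ENSMUSG00000001655), which drives keratin genes in hair and nails, had a signal of 9.96, 12.6 and 13.3 in WT and 5.75, 5.26 and 5.34 in Dnmt1−/− cells. WT replicate 1 was the lowest of its group and still well above the Dnmt1−/− libraries, and the fold change was −1.06 ± 0.10 (limma, Benjamini-Hochberg adjusted p = 2.21e-09). Hoxd13 (ENSMUSG00000001819), a gene of digit and genital development, stood at 5.76, 4.34 and 5.89 in WT and at 2.44, 2.73 and 2.17 in Dnmt1−/− cells. Its groups did not overlap, and its mean in Dnmt1−/− cells was 45.9% of that in WT.

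Hoxa11 (ENSMUSG00000038210), needed for the forearm and the uterus, had a signal of 2.42, 2.62 and 3.02 in WT and 0.696, 0.625 and 0.553 in Dnmt1−/− cells. Its fold change of −1.5 ± 0.14 was the largest among the posterior HoxA genes, but 35.0% of its exon length is shared with Hoxa11os on the opposite strand. Hoxa10, which acts in the uterus and the lumbar spine, stood at 3.31, 3.12 and 3.05 in WT and at 1.46, 2.2 and 1.77 in Dnmt1−/− cells. Hoxa9, a gene of blood progenitors, stood at 1.41, 1.71 and 1.47 in WT and at 0.627, 0.526 and 0.479 in Dnmt1−/− cells. Neither gene overlapped between the groups, with 57.3% of the WT mean left for Hoxa10 and 35.5% for Hoxa9.

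Hoxc12, beside Hoxc13 at the 5′ end of its cluster, had a signal of 2.19, 2.78 and 2.44 in WT and 0.592, 0.822 and 0.847 in Dnmt1−/− cells. Hoxc10, which acts in lumbar motor neurons, stood at 0.851, 1.25 and 1.01 in WT and at 0.383, 0.197 and 0.221 in Dnmt1−/− cells. Both were lower in all Dnmt1−/− libraries, to 30.5% and 25.8% of the WT mean. Hoxd9, which acts in the limb and the spine, had 1.77, 2.26 and 1.65 in WT and 0.870, 1.22 and 1.22 in Dnmt1−/− cells. Its fold change of −0.58 ± 0.14 was smaller than that of Hoxc12, −1.25 ± 0.14. Hoxc11 and Hoxd11 were also lower, with fold changes of −0.60 and −0.52 on 59 and 57 WT reads. Hoxd10, a gene of hindlimb motor neurons, had 17, 6 and 3 reads in WT and 0, 1 and 1 in Dnmt1−/− cells.

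Some of the most posterior genes kept more of their RNA. Hoxa13 (ENSMUSG00000038203), required for digits and the genital tract, had a signal of 0.524, 0.545 and 0.862 in WT and 0.487, 0.427 and 0.590 in Dnmt1−/− cells. The groups overlapped, and the fold change of −0.18 ± 0.16 did not pass (limma, Benjamini-Hochberg adjusted p = 0.297). Hoxb13 (ENSMUSG00000049604), a marker of the prostate and hindgut, stood at 2.78, 2.52 and 3.02 in WT and at 2.65, 1.45 and 2.25 in Dnmt1−/− cells. Dnmt1−/− replicate 1 lay inside the WT range, and replicate 2 was the lowest of all. The fold change of −0.35 ± 0.15 passed with limma (Benjamini-Hochberg adjusted p = 0.0395), but without Dnmt1−/− replicate 2 it was −0.15 with an adjusted p of 0.340 (limma, Benjamini-Hochberg). The edgeR and DESeq2 tests of the reads also left it above the threshold (Benjamini-Hochberg adjusted p = 0.0537 and 0.109). Hoxd12 had 4, 5 and 1 reads in WT and 1, 0 and 4 in Dnmt1−/− cells, too few to compare.

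Among the anterior genes, Hoxb4 (ENSMUSG00000038692), known for expanding blood stem cells, had the highest signal, at 6.58, 7.45 and 5.28 in WT and 3.17, 2.89 and 2.58 in Dnmt1−/− cells. The groups stood apart, with a fold change of −1.03 ± 0.12 (limma, Benjamini-Hochberg adjusted p = 7.24e-08). Hoxc4, which patterns the neck, stood at 2.33, 3.17 and 1.83 in WT and at 1.36, 1.41 and 1.44 in Dnmt1−/− cells. The WT libraries of Hoxc4 were spread more widely than the Dnmt1−/− libraries but remained above them.

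Hoxa2 and Hoxb1, genes of hindbrain segments and the pharyngeal arches, had few reads left. Hoxa2 had 42 reads summed over WT and 4 over Dnmt1−/− cells, and Hoxb1 had 64 and 5. Hoxb3 had 3, 4 and 7 reads in WT and 1, 2 and 1 in Dnmt1−/− cells, and 52.9% of its exon length is shared with Hoxb3os on the opposite strand. Hoxd3 had 2 reads in all, both in WT replicate 2, and it shares 62.3% of its exon length with other annotated genes of its strand, Hoxd4 among them.

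Hoxd1 (ENSMUSG00000042448), at the 3′ end of HoxD and known from pain-sensing neurons, was the 1 member that was higher in Dnmt1−/− cells. Its signal was 0.0982, 0.545 and 0.287 in WT and 0.801, 1.22 and 1.07 in Dnmt1−/− cells, from 3, 21 and 8 reads against 23, 37 and 29. The lowest Dnmt1−/− library was above the highest WT library, and the mean was 331% of that in WT cells. This share rests on few WT reads, most of them in WT replicate 2, and would be higher without that library. The fold change was 0.94 ± 0.18 (limma, Benjamini-Hochberg adjusted p = 4.89e-05), higher in 3 of 3 libraries, and without the filter the adjusted p was 8.07e-04 (limma, Benjamini-Hochberg). With 1 library left out the fold change ranged from 0.74 to 1.15, the latter without WT replicate 2. Within HoxD its nearest listed Hox gene, Hoxd3, was near 0 in both groups, and Hoxd9, Hoxd11 and Hoxd13 were lower in Dnmt1−/− cells.

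**Figure D2:**
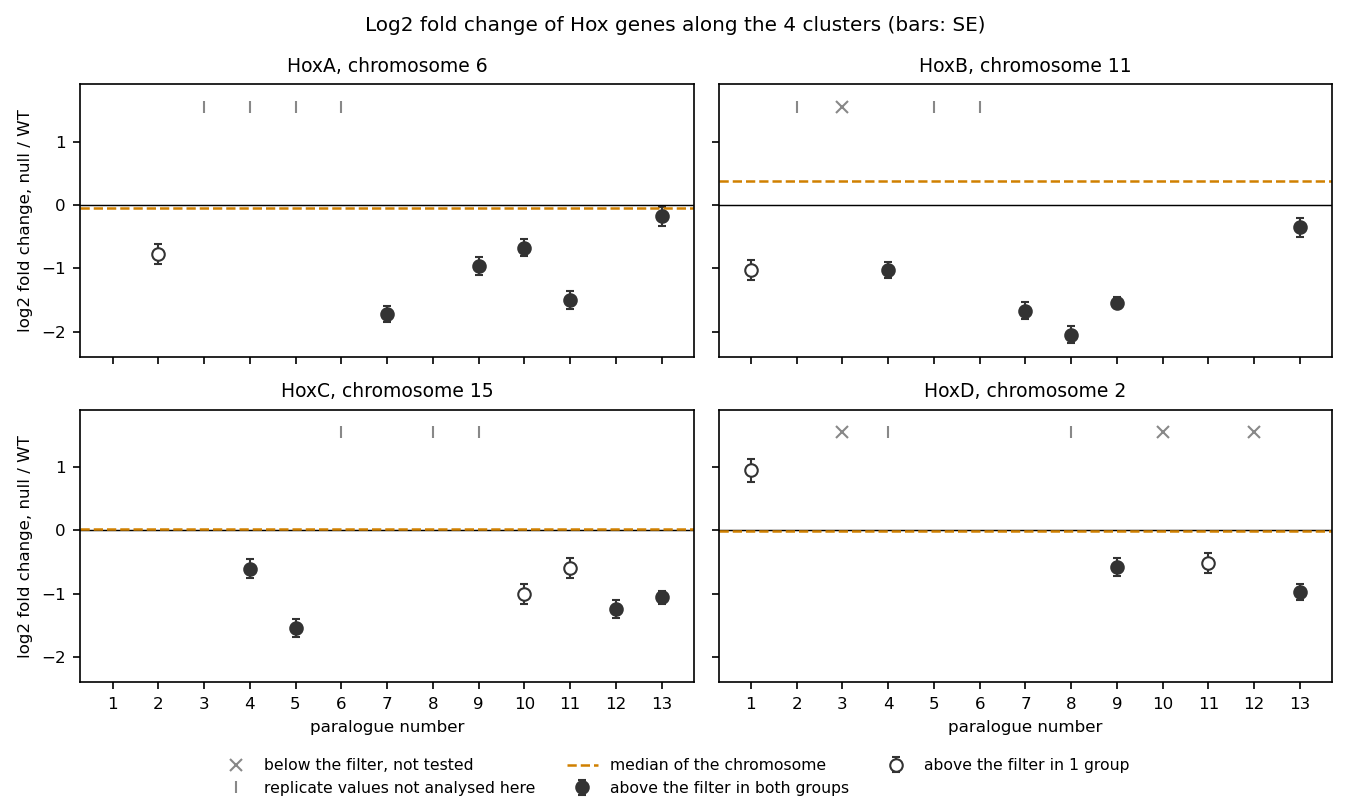
Log2 fold change of signal + 0.5, Dnmt1−/− over WT (vertical axis, bars show ± SE), against paralogue number (horizontal axis) in the 4 clusters; filled points had enough reads in both groups, open points in 1 group, crosses had too few reads to test, upright bars mark genes whose replicate values were not analysed here, 1 gene is not drawn, and the dashed orange line is the median of the cluster's chromosome. By the median of its tested genes HoxB lies furthest below its line (−1.29 against 0.38), though not every HoxB point does. Hoxd1 is the only tested gene above 0.

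Levels of different genes were compared per kilobase of exon. In WT cells Hoxb9 led with a signal of 6.33 ± 0.145 per kilobase, followed by Hoxc13 with 4.85 ± 0.715 (SD, n = 3), and neither overlapped the next gene in the order. The following genes were Hoxb7, Hoxb4, Hoxc12, Hoxd13 and Hoxa7, between 3.00 and 1.99 per kilobase. Each of them overlapped the next one named, and Hoxa7 did not overlap the gene that came after it. Hoxd3 was the lowest at 0.00413 per kilobase. In Dnmt1−/− cells Hoxc13, at 2.21 ± 0.106 per kilobase, stood above Hoxb9, at 2.04 ± 0.0448, by little more than their spread. Hoxb8 went from rank 9 in WT to rank 17 of the 27, and Hoxa7 from rank 7 to rank 13. Hoxd1 went the other way, from rank 22 with 0.167 per kilobase to rank 10 with 0.552.

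All 4 clusters lost signal, HoxD the least. The HoxA genes (chromosome 6) summed to 17.7 ± 0.231 in WT and 6.93 ± 0.258 in Dnmt1−/− cells, 39.1% of WT. The HoxB genes (GRCm38 chromosome 11, 96194316 to 96368256) summed to 34.5 ± 2.03 and 12 ± 0.726, 34.6% of WT. The HoxC genes (chromosome 15, 102921103 to 103036852) summed to 21.3 ± 2.28 and 8.72 ± 0.309, 41.0% of WT. HoxD (chromosome 2, 74668310 to 74765142) kept 57.8%, with sums of 8.51 ± 0.420 and 4.92 ± 0.504 (SD, n = 3 for each sum). For each cluster the WT and Dnmt1−/− sums lay further apart than the spread of either group, and the differences between clusters were not tested.

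The chromosome medians did not fall with their clusters. The median fold change of tested protein-coding genes was −0.05 on chromosome 6, 0.02 on chromosome 15 and −0.01 on chromosome 2, and it was 0.38 on chromosome 11, where HoxB lies. Genes around the clusters were mixed. Of the 24 nearest tested protein-coding genes outside them, 3 on each side, 8 were lower and 12 higher in Dnmt1−/− cells, beside 35.4% and 35.8% of all genes tested, with a median of 0.11. Beside HoxB, Calcoco2 had a fold change of 0.95 ± 0.05, while the adaptor gene Skap1 had a signal of 5.72 ± 0.0249 in WT and 1.46 ± 0.451 in Dnmt1−/− cells (SD, n = 3 each).

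Inside the clusters, 17 listed genes are not Hox genes, and 4 of them were tested. Hotairm1, a noncoding RNA of HoxA, had a signal of 2.46, 2.16 and 2.66 in WT and 0.696, 1.25 and 0.258 in Dnmt1−/− cells, all below WT. Gm53 in HoxB stood at 13.4 ± 0.713 in WT and 8.91 ± 0.432 in Dnmt1−/− cells, and the microRNA gene Mir196a-1 at 1.66 ± 0.230 and 0.988 ± 0.231 (SD, n = 3 each). These 3 were lower at the threshold, as were 35.4% of all genes tested, and Gm11539, also in HoxB, was not, at 13.2 ± 1.36 and 14 ± 1.65. Hotair, the noncoding RNA of HoxC, had 3, 0 and 5 reads in WT and 1, 0 and 0 in Dnmt1−/− cells.

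The partners and regulators of Hox genes did not share a single direction. Of 9 Hox cofactors, 6 were lower and 2 higher in Dnmt1−/− cells, with a median fold change of −0.47 beside 0.01 over all genes tested, of which 35.4% were lower and 35.8% higher. These shares stand beside the counts of every list below. Meis2 stood at 19.9 ± 1.22 in WT and 10.7 ± 0.424 in Dnmt1−/− cells, and Pbx2 went up, from 59.0 ± 1.72 to 80.9 ± 1.64. Of 20 tested genes that activate Hox genes or handle retinoids, 13 were lower and 4 higher, with a median of −0.37. Among them Cdx1, a direct activator of Hox genes, fell from 8.81 ± 0.394 to 2.07 ± 0.205, and Rarb, a retinoic acid receptor that is itself retinoid-induced, fell from 7.37 ± 0.589 to 1.66 ± 0.254. Wnt3a, a signal of the tail bud, rose from 0.770 ± 0.119 to 3.04 ± 0.529.

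Of 31 tested Polycomb genes, 11 were lower and 15 higher, beside 35.4% and 35.8% of all genes tested, with a median of 0.12. Suz12, a core subunit of PRC2, had a signal of 159, 140 and 174 in WT and 423, 417 and 432 in Dnmt1−/− cells, without overlap. Cbx2, a PRC1 subunit that reads the PRC2 mark, rose from 23.5 ± 0.913 to 50.6 ± 0.893, while Bmi1, another PRC1 subunit, had a fold change of −0.83 ± 0.07. Of 12 Trithorax and MLL genes, 7 were lower and 2 higher, with a median of −0.17. The demethylase gene Kdm6a fell from 91.1 ± 6.56 to 63.7 ± 1.03, and Men1, a partner of MLL, rose from 61.6 ± 2.70 to 87.9 ± 1.68.

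Other homeobox genes showed both directions. Of 6 tested ParaHox and Evx genes, 3 were lower and 2 higher, with a median of −0.05. Gsx2 had a signal of 1.74, 1.97 and 1.83 in WT and 0.104, 0.0657 and 0.147 in Dnmt1−/− cells. The Dnmt1−/− values are a few reads each. Gsx2 thus passed the filter through WT reads only, and its direction is partly set by the filter. Of 26 tested homeobox genes outside these families, 12 were lower and 6 higher, with a median of −0.26. Prrx1, a gene of limb mesenchyme that is also a fibroblast marker here, fell from 39.3 ± 5.0 to 3.88 ± 0.489, and Irx1, which patterns the early neural plate, fell from 8.88 ± 1.94 to 1.43 ± 0.122.

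Markers of other lineages differed in direction between the lists. For posterior mesoderm, 1 of 7 tested markers was lower, Cdx1, and 3 were higher, with a median of 0.27. For neural cells, 2 of 5 were lower and 3 did not pass, with a median of −0.23. For blood, 3 of 5 were lower and 2 higher, with a median of −0.49. Hba-a1 had a mean signal of 0.0522 in WT and 0.732 in Dnmt1−/− cells, and Tal1 one of 1.25 and 0.223. Hba-a1 passed the filter through Dnmt1−/− reads only, and Tal1 through WT reads only. The direction of members this low in 1 group, here and in the other lists, may thus be partly set by the filter. Endoderm had 4 of 5 markers higher and 1 not past, with a median of 1.01, and trophoblast had 4 of 5 higher and 1 lower, with a median of 0.69. Of the 9 ES cell markers, 3 were lower and 2 higher, with a median of −0.04, and among fibroblast markers the median was −2.21. The part of these cell types in the Hox result was not tested.

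The single libraries show the 39 Hox genes in cells that expressed dCas9-OGA or its mutant. With 1 library each there is no replicate check and no p-value, and the intervals given are 95% intervals that cover counting error only. Summed over the 39 genes, 787 reads fell on Hox genes in WT, 223 in Dnmt1−/−, 214 with dCas9-OGA and 238 with dCas9-OGA D242A. As counts scaled by library size (cpm, with TMM factors) this was 31.8 (29.6 to 34.0) in WT, 11.7 (10.2 to 13.4) in Dnmt1−/−, 8.62 (7.51 to 9.86) with dCas9-OGA and 9.58 (8.40 to 10.9) with dCas9-OGA D242A. The WT library was the high one, and the other 3 lay between 8.62 and 11.7 cpm.

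The comparison of dCas9-OGA with dCas9-OGA D242A asks what the removal of O-GlcNAc adds to binding of the fusion protein. The ratio of the Hox sums was 0.900 (0.745 to 1.09), so a difference was not detectable at this depth. By cluster the ratio was 1.21 (0.854 to 1.71) for HoxA, 0.869 (0.573 to 1.31) for HoxB, 0.771 (0.536 to 1.10) for HoxC and 0.730 (0.458 to 1.15) for HoxD. Each of these intervals holds 1. No Hox gene reached 100 counts over the pair of libraries, the minimum used for fold changes, while among the 12722 genes that did, 7.22% were at least 2-fold lower and 4.88% at least 2-fold higher in dCas9-OGA. At a minimum of 20 counts none of 5 was 2-fold apart, beside 8.81% lower and 4.88% higher of 15510 genes. Hoxc13 had 38 counts with dCas9-OGA and 53 with the mutant, and Hoxb9 had 23 and 26. The median log2 ratio of chromosome 11, where HoxB lies, was −0.46 between these libraries, against 0.07, 0.03 and 0.11 for chromosomes 6, 15 and 2.

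The comparison of dCas9-OGA D242A with WT sets cells with the inactive fusion protein beside cells without it. The former also had the cassette, sgRNAs and doxycycline, and the line and treatment of the WT library are not stated, so these parts cannot be told apart. The Hox sum was 0.302 (0.260 to 0.349) of that in WT. Of the 3 Hox genes with at least 100 counts, 2 were at least 2-fold lower, as were 8.28% of 12933 genes. Hoxd13 had 107 counts in WT and 19 in dCas9-OGA D242A, a ratio of 0.177 (0.103 to 0.290). Hoxc13, with 91 and 53 counts, had a ratio of 0.581 (0.406 to 0.824). At a lower minimum of 20 counts, 7 of 14 Hox genes were at least 2-fold lower, as were 8.82% of 15916 genes.

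Against the same WT library, the Hox sum of dCas9-OGA was 0.272 (0.232 to 0.316). The 3 Hox genes with at least 100 counts were all at least 2-fold lower, as were 9.78% of 12746 genes, and the ratio was 0.417 (0.278 to 0.615) for Hoxc13 and 0.159 (0.0891 to 0.266) for Hoxd13. Hoxd8 had 20 counts in WT and 6 with dCas9-OGA, and Hoxa10 had 47 and 7. At a minimum of 20 counts, 9 of 13 Hox genes were at least 2-fold lower, as were 11.9% of 15703 genes.

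The Hox sum of the single Dnmt1−/− library was 0.369 (0.317 to 0.429) of that in WT. Of the 3 genes with at least 100 counts, 2 were at least 2-fold lower, as were 6.89% of 12593 genes. Hoxd13 had 33 counts, a ratio of 0.402 (0.264 to 0.599), and Hoxc13 had 36, a ratio of 0.516 (0.341 to 0.767). Hoxd1, higher in the Dnmt1−/− replicates, had 26 counts in WT and 21 in Dnmt1−/− cells, a ratio of 1.05 (0.563 to 1.95), whose interval holds 1. Hoxb7 and Hoxb8, both lower in the Dnmt1−/− replicates, had 4 and 7 counts in the single WT library and 5 and 3 in Dnmt1−/−, too few to compare. At a minimum of 20 counts, 6 of 12 Hox genes were at least 2-fold lower, as were 8.07% of 15598 genes. All 3 comparisons share the WT library and are not independent.

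The 12 genes without replicate values here were scarce in the single libraries. Hoxd8, which acts in the trunk and limb, had the most, with 20 counts in WT, 15 in Dnmt1−/−, 6 with dCas9-OGA and 6 with its mutant. Hoxc6, a thoracic gene, had 8, 1, 4 and 1 counts in the same order, Hoxa3 had 6, 1, 0 and 1, and Hoxb6 had 6, 3, 3 and 4. The other 8 had at most 4 counts in any library, so no difference was detectable for them.

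**Figure D3:**
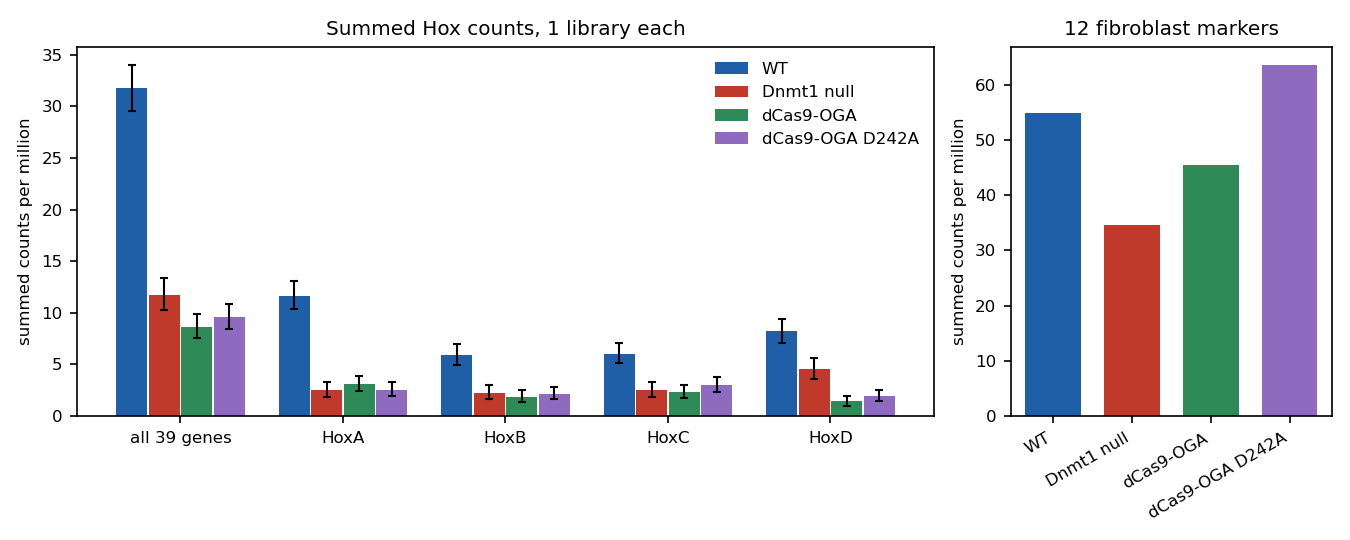
Left, bars of the summed cpm (vertical axis) of all 39 Hox genes and of each cluster (horizontal axis) in the 4 single libraries (colours), with 95% Poisson intervals that cover counting error only; right, summed cpm of the 12 fibroblast markers in the same libraries, without intervals. The Hox sum is 31.8 cpm in WT and between 8.62 and 11.7 cpm in the others, while the fibroblast sum is highest in dCas9-OGA D242A at 63.6 cpm.

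Fibroblast markers in the single libraries summed to 54.9 cpm in WT, and were lower in Dnmt1−/− (34.6) and with dCas9-OGA (45.5), as the Hox sums were, but higher with its mutant (63.6). Thy1 was the most abundant in WT, with 515, 351, 567 and 579 counts in that order. Col1a1 had 364, 125, 249 and 568 counts, Col1a2 163, 30, 64 and 260, Postn 22, 14, 12 and 17, Prrx1 10, 1, 2 and 5, and Dcn 10, 11, 8 and 11. Pdgfra had 111, 32, 105 and 37. Trophoblast markers summed to 413 cpm in WT and to 67.0, 149 and 175 cpm in the other 3. In the same order, posterior mesoderm markers summed to 19.9, 7.00, 9.15 and 3.34 cpm, endoderm markers to 35.4, 12, 25.1 and 9.17, and neural markers to 171, 233, 57.9 and 165. The sums cover 10 neural, 10 posterior mesoderm and 7 trophoblast genes, of which 7, 9 and 6 were listed in the replicates. The neural, posterior mesoderm and trophoblast sums thus include genes without a replicate value. Cdx2, an activator of posterior Hox genes, had 159 counts in WT and 4, 7 and 3 in the others. Its signal in the replicates was low and went the other way, 0.479 ± 0.221 in WT and 0.925 ± 0.0821 in Dnmt1−/− cells, and Cdx1 had 96, 11, 104 and 4 counts in the single libraries, in the order given for Thy1. The part of such cells in the high Hox sum of the WT library was not tested.

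The single WT library also differed from the WT replicates in the makeup of its Hox reads. Over the 27 genes in both tables, HoxB took 43.1%, 42.6% and 40.4% of Hox reads in the WT replicates and 18.8% (16.0% to 21.8%, Clopper-Pearson) in the single WT library. HoxA took 22.0%, 20.5% and 22.4% in the replicates and 37.7% (34.2% to 41.4%) in the single library. Within the replicates, the HoxD share was 11.2%, 9.46% and 10.5% in WT and 13.3%, 16.6% and 15.4% in Dnmt1−/− cells, without overlap. In the single libraries the HoxD share was 24.8% in WT, 35.9% (29.2% to 43.1%) in Dnmt1−/−, 13.8% with dCas9-OGA and 18.8% with its mutant. In both tables the share of HoxD was thus higher in Dnmt1−/− than in WT.

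Promoter sequence is shown because CpG sites are the sites that Dnmt1 methylates. RefSeq promoter windows on GRCm38.p6, from 250 bases before to 50 bases after the start, were found for 22 of the 39 Hox genes (24 windows). They held a median of 14.5 CpG sites, from 4 to 45, against 7 over 32851 windows of 27025 genes, and 70.8% held at least 10 against 43.5% of all windows. The letters AGGTCA, the core motif of retinoic acid receptors, stood on either strand in 7 Hox windows (29.2%, against 16.3% of all windows), those of Hoxa5, Hoxb4, Hoxc4, Hoxd3, Hoxd4, Hoxd8 and Hoxd10. The letters TATAAA stood on the gene's strand only in that of Hoxd13 (4.17%, against 8.32% of all windows). The window with the most CpG sites was that of Hoxa13, with 45. The 250 bases before the start are given 5′ to 3′ on the gene's strand, with CpG in capitals, for Hoxb8 (chr11:96281655-96281904, plus strand, 12 CpG), Hoxa13 (chr6:52260881-52261130, minus strand, 35 CpG) and Hoxd13 (chr2:74667975-74668224, plus strand, 31 CpG, with the letters tataaa), none of which overlaps an annotated exon.
Hoxb8: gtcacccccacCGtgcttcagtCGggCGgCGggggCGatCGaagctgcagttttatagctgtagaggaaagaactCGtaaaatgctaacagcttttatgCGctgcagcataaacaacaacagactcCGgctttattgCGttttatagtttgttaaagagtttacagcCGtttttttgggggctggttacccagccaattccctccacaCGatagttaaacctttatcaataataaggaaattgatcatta
Hoxa13: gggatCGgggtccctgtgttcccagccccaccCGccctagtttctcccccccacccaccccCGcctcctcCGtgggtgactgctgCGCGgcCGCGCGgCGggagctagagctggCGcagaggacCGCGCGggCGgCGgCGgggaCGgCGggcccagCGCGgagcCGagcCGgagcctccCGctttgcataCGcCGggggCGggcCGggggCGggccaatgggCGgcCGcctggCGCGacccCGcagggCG
Hoxd13: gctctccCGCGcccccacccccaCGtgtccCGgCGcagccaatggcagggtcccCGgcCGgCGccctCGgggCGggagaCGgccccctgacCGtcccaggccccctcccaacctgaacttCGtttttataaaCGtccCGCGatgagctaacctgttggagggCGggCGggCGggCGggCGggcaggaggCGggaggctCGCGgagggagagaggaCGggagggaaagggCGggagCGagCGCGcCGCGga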

How the data were processed

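RNA of 8 samples was used; ChIP-seq was not analysed here. Alignment by the authors was to mm10, with HISAT2 2.1.0 for replicate libraries, while the submitters' processing notes name TopHat2 2.0.11 and Bowtie2 2.2.2 for dCas9 samples. Reads on rRNA were discarded, and featureCounts 1.5.0 assigned the rest to Ensembl 87 genes. The strand setting is not given in the sources used here. For single libraries the authors deposited a count per gene. For replicate libraries they deposited a signal, the count divided by a scaled library size. Since their headers and columns disagree, values were read by column position. Dividing by the value of 1 read gave whole reads for 100% of values (tolerance 0.01 reads).

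Because the files held a signal, limma 3.58.1 (trend) on log2(signal + 0.5) was used, with Benjamini-Hochberg adjustment over 17297 genes kept by filterByExpr, as the design foresaw for normalized values. The edgeR 4.0.16 quasi-likelihood test of the recovered reads called 12252 genes and limma 12324. DESeq2 1.42.0, pseudocounts of 0.1 and 2, no filter, TMM scaling, the replicate block and left-out libraries were further alternatives. The replicate pairs of each group differed by more than sampling noise, so no library was counted as a copy. Single libraries were scaled with TMM factors and compared on log2(cpm + 0.5) at a minimum of 100 counts summed, with exact conditional binomial intervals of ratios and Poisson intervals of sums. Positions and exon lengths came from GENCODE vM21 (GRCm38), which held 49326 of the 49671 gene identifiers.

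Named genes were the Hox genes, of which 1 is not reported here by name. Values per library are given for those past an adjusted p of 0.05 with a mean of at least 20 reads, or with at least 100 counts and 2-fold apart in single libraries. Of each list, the 3 largest changes and the 2 highest means could be named; Pou5f1, Pdgfra, Thy1, Hoxa13 and the low Hox genes with reads given were named after their values were seen. Lists were Hox cofactors, activators and retinoid genes, Trithorax and MLL, Polycomb, ParaHox and Evx, other homeobox genes, and markers of ES cells, fibroblasts, posterior mesoderm, neural cells, endoderm, trophoblast and blood. Members and lists were chosen with earlier results of these data known. Software was R 4.3.3, SciPy 1.17.1, matplotlib 3.10.9, NumPy 2.4.6, pandas 2.3.3 and Python 3.11.15.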

Additional observations from a re-analysis of the deposited data

How the results depend on the processing

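Without the filter, 22 of 27 Hox genes were lower in Dnmt1−/− replicates, beside 25.8% of all genes. With it 21 of 23 were, beside 35.4%, but 5 of the 21 passed it through WT reads only. The filtered count was 20 with edgeR and with DESeq2, 21 with a pseudocount of 0.1 or 2 and with TMM scaling, and from 20 to 21 with 1 library left out, while 1 gene, which passed the filter through Dnmt1−/− reads only, was higher throughout. All genes called ranged from 11616 to 12128 with 1 library left out, against 12324. Of 299 values of single Hox genes under alternatives, none changed direction and 6 lost the call, all of Hoxb13: those with edgeR, DESeq2, no filter, and without WT replicate 1, WT replicate 3 or Dnmt1−/− replicate 2 (limma, Benjamini-Hochberg adjusted p = 0.0947, 0.0800 and 0.340 for the last 3); the cause was not tested. Fold changes of low genes moved with the pseudocount and tool, for Hoxb1 from −3.50 to −0.36, for Hoxa2 from −3.22 to −0.25 and for Hoxd1 from 0.39 to 1.67. The deviations of libraries of the same number had correlations near 0 (0.0740, −0.0164 and 0.0652). Replicates 1 and 3 of WT correlated best with their own number, and replicate 2 did not. Correlations this small, with 3 libraries a group, do not show whether the numbers pair the libraries. With the replicate block 21 Hox genes were lower, 1 was higher and 12556 genes were called in all. In single libraries, a minimum of 20 counts, which admits more genes, raised the Hox genes at least 2-fold lower than WT. They were then 7 of 14 for dCas9-OGA D242A, 9 of 13 for dCas9-OGA and 6 of 12 for Dnmt1−/−. Of the 3 Hox genes with at least 100 counts, a pseudocount of 2 cpm, which shrinks ratios, left 1 for dCas9-OGA and 1 for Dnmt1−/−. It did not change the count for dCas9-OGA D242A. Few counts limit the comparison of dCas9-OGA with its mutant, where Hoxc13 had the most counts of any Hox gene, 53 and 38.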
